A study of Rattus norvegicus with 12 samples.

Results

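The 7 sirtuins and NAMPT were followed through the RNA-seq libraries of a high-glucose cell model. These 8 genes were found by their human Ensembl identifiers among the 20263 genes of the deposited tables, and all 8 were present: SIRT1 (ENSG00000096717), SIRT2 (ENSG00000068903), SIRT3 (ENSG00000142082), SIRT4 (ENSG00000089163), SIRT5 (ENSG00000124523), SIRT6 (ENSG00000077463), SIRT7 (ENSG00000187531) and NAMPT (ENSG00000105835). The rule that picks them uses no measured value, though they were chosen with earlier results of these data known. Poly(A)-selected RNA was sequenced from wild-type H9C2 cells (established from the heart of a rat embryo) after 48 h of treatment, in 4 groups with 3 biological replicates each. The group named Ctrl was kept in medium with 5.5 mM glucose. HG had 100 mM glucose and no drug, and HG-Res had in addition 5 µM resveratrol. HG-Res-SIRT7-Inh, below the inhibitor group, received that medium, that resveratrol dose and, at 5 µM, what the labels call a SIRT7 inhibitor. The 9 libraries other than Ctrl carry values for all 8 genes and share the 100 mM glucose. The labels name no osmotic control, no vehicle and no group given the inhibitor alone. They name the inhibitor as SirReal2, a compound known chiefly as an inhibitor of SIRT2.

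Sirtuins are enzymes that remove acetyl or related acyl groups from lysines of other proteins and consume NAD in doing so, which ties their activity to the metabolic state of the cell. NAMPT makes nicotinamide mononucleotide from nicotinamide, the rate-limiting step of the salvage route that returns the sirtuins' by-product to NAD. In the heart the family is known for its part in stress resistance and mitochondrial metabolism, and resveratrol is widely used as a sirtuin activator. Both compounds are used to change the activity of the enzymes, so the RNA levels below do not show whether either one reached its target.

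The identifiers are human in style, whereas the labels give rat, and none of the 20263 matched the rat gene table at hand (assembly GRCr8). Whether the values come from rat or from human genes cannot be told apart here, and the gene names follow the identifiers. For lack of a table pairing identifiers with symbols, the wider NAD pathway, sirtuin partners and cell type markers were not analysed here, so the cardiomyocyte label was not checked. Values are in CPM, a gene's reads relative to the total of its library, with no scaling by gene length. They can be compared between libraries for 1 gene, but not between genes, and in bulk RNA fewer expressing cells and less RNA per cell cannot be told apart. The depth recovered from the values was 30.29 to 33.17 M reads per library. A pair of libraries stood apart on the first principal component of the other 12846 tested genes, which held 56.1% of their variance. HG replicate 2 scored -29.7 and inhibitor replicate 3 scored 50.6, while the other 7 lay between -14.4 and 17.1.

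No gene of the family passed the test in any comparison with all 9 libraries. limma was fitted on log2(CPM + 1) over the 12854 genes that reached 0.5 CPM in 3 or more libraries, and calls were made at a Benjamini-Hochberg adjusted p of 0.05. All 8 genes were tested. Between HG-Res and HG, 0 of the 8 passed, beside 0.708% of all tested genes. Between the inhibitor group and HG-Res, 0 passed beside 6.07%, and between the inhibitor group and HG, 0 passed beside 10.8%. At an unadjusted limma p under 0.05 the counts were 0, 3 and 1 of 8, where 10.7%, 24.6% and 27.9% of all tested genes did so. The median change of the 8 genes was 0.02, -0.003 and 0.01 (log2), beside -0.0005, 0.04 and 0.04 over all tested genes. The authors' deposited tables gave no q-value under 0.05 to any of the 8 genes in the same 3 comparisons, beside 8.47%, 8.69% and 7.84% of the tested genes. The limma fit used 1 spread per gene over all 9 libraries, while the groups differed. Their median SD (log2) was 0.071 in HG-Res, 0.132 in HG and 0.242 in the inhibitor group. The errors for HG-Res against HG thus include the spread of the inhibitor group. With only the 2 groups of a comparison fitted, 596, 414 and 420 genes passed, in place of 91, 780 and 1385. Of the 8 genes 0 passed in each.

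**Figure D1:**
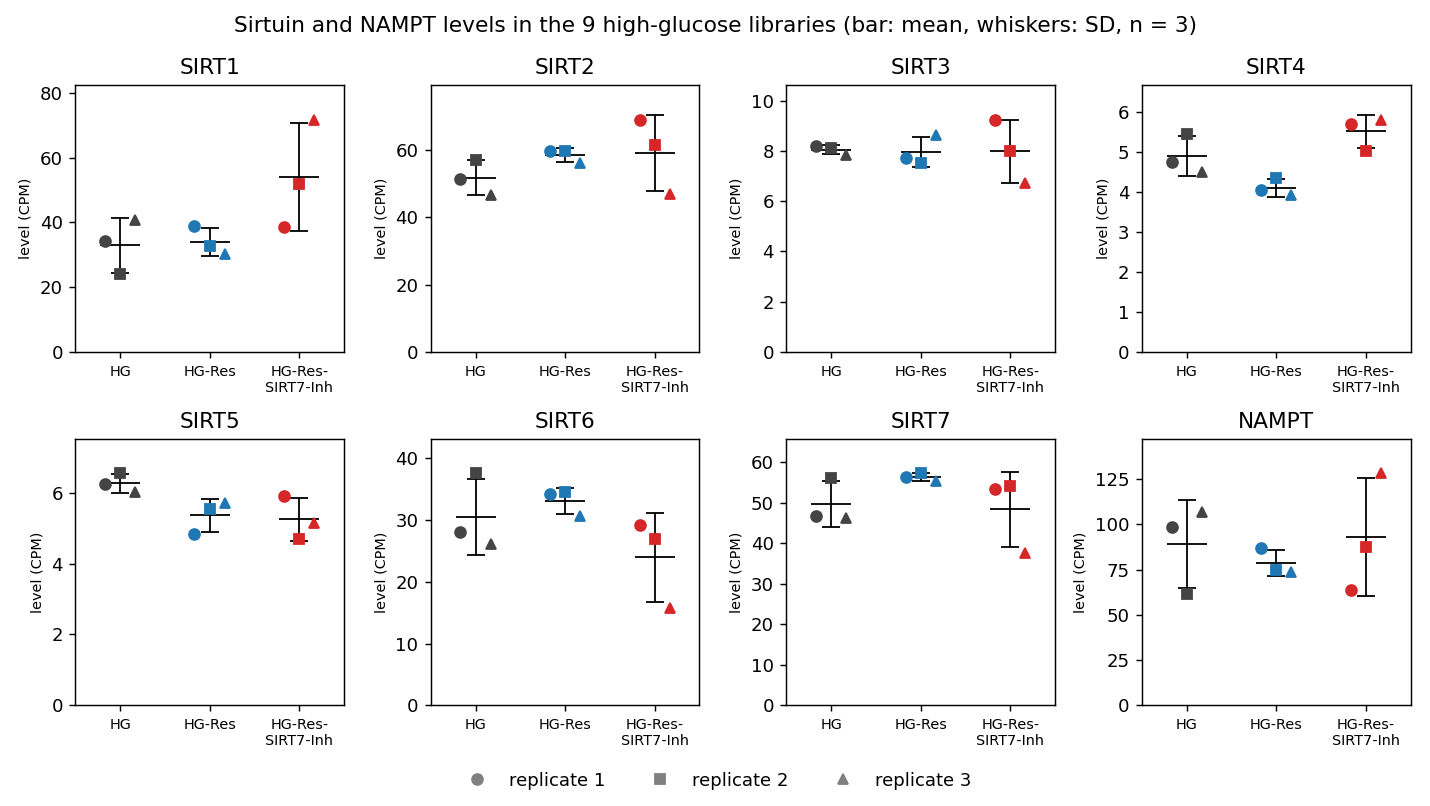
Level in CPM (vertical axes, each starting at 0) of each gene in HG, HG-Res and the inhibitor group (horizontal axes); symbols are replicates 1, 2 and 3, the bar is the mean and the whiskers the SD (n = 3). SIRT1 and NAMPT spread most within HG and the inhibitor group, with the highest values, 71.7 and 128.26 CPM, in inhibitor replicate 3.

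SIRT7 is a mainly nucleolar deacetylase known for its link to ribosomal RNA transcription, and it is the sirtuin named in the label of the inhibitor. Its level was 46.81, 56.17 and 46.13 CPM in HG replicates 1, 2 and 3. It was 56.24, 57.23 and 55.38 CPM in HG-Res, and 53.44, 54.03 and 37.67 CPM in the inhibitor group. The HG-Res libraries lay close together and above 2 of the 3 HG libraries, and HG replicate 2 lay within their range. With the inhibitor all 3 libraries lay below HG-Res, replicate 3 by far the most. In order of the means, the inhibitor group was at 48.4 ± 9.28 CPM, HG at 49.7 ± 5.61 and HG-Res at 56.3 ± 0.926 (SD, n = 3), and neither pair of neighbours differed past the threshold. HG-Res against HG gave a limma change of 0.18 ± 0.15 (log2, SE), a 1.13-fold ratio with a 95% interval of 0.9 to 1.43 (adjusted p = 0.76). With HG-Res and HG fitted alone the SE was 0.09 (limma adjusted p = 0.276). The inhibitor group against HG-Res gave -0.23 ± 0.15, a ratio of 0.85 (0.68 to 1.07, limma adjusted p = 0.336). Against HG the change was -0.05 ± 0.15, a ratio of 0.97 (0.77 to 1.22, limma adjusted p = 0.843). A change of SIRT7 RNA of 1.5-fold or more in either direction lay outside all 3 intervals, but only just for a fall against HG-Res. That interval began at -0.566 (log2). It began at -0.5886 with median-of-ratios scaling and at -0.5952 when the 2 groups were fitted alone, and a 1.5-fold fall lay inside both.

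SIRT1 is a mostly nuclear deacetylase of histones and transcription factors and the sirtuin most often linked to resveratrol. Its level was 34.27, 23.94 and 40.76 CPM in HG, 38.9, 32.66 and 30.34 CPM in HG-Res, and 38.54, 51.91 and 71.7 CPM in the inhibitor group. HG-Res lay inside the range of HG. With the inhibitor, replicates 2 and 3 were above all 6 other libraries, while replicate 1 was below the highest library of both other groups. The means were 33 ± 8.48 CPM in HG, 34 ± 4.43 in HG-Res and 54.1 ± 16.7 in the inhibitor group (SD, n = 3). The change between HG-Res and HG was 0.07 ± 0.24 (limma adjusted p = 0.971). The largest mean differences of the family were those of SIRT1 with the inhibitor. They were 0.62 ± 0.24 against HG-Res, a 1.53-fold ratio (1.06 to 2.23, limma adjusted p = 0.158), and 0.68 ± 0.24 against HG, 1.61-fold (1.1 to 2.33, limma adjusted p = 0.101).

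In the authors' deposited tables SIRT1 carried the mark up in both of these comparisons, the only marks among the 8 genes. That mark was met exactly where the unadjusted p was under 0.05 and the fold change over 1.5. It was carried upward by 4.95% of tested genes against HG-Res and by 6.07% against HG. The authors' deposited tables gave SIRT1 log2 fold changes of 0.64 (p = 0.0054, q = 0.059) and 0.71 (p = 0.00992, q = 0.098). Without inhibitor replicate 1 the SIRT1 changes were 0.83 and 0.90 and both passed (limma adjusted p = 0.0459 and 0.0321), beside 13.8% and 16.9% of all tested genes. Without replicate 3, the library that stood apart, they were smaller, 0.40 and 0.46, and as with all 9 libraries neither passed (limma adjusted p = 0.317 and 0.176), beside 9.14% and 21.1%.

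SIRT6, a nuclear enzyme that acts on chromatin in DNA repair and in the control of glycolytic genes, was lowest in the library where SIRT1 was highest, and highest in HG replicate 2, where SIRT1 was lowest. It was at 28.04, 37.54 and 26.04 CPM in HG, 34.19, 34.47 and 30.65 CPM in HG-Res, and 29.24, 26.94 and 15.78 CPM in the inhibitor group. Its lowest library was inhibitor replicate 3, with 478 recovered reads against 810 to 1245 in the other 8. The inhibitor group lay wholly below HG-Res and overlapped HG. The change against HG-Res was -0.49 ± 0.22 (limma adjusted p = 0.201), a ratio of 0.71 (95% interval 0.51 to 1), and it was -0.23 ± 0.15 (limma adjusted p = 0.382) without replicate 3. Against HG it was -0.36 ± 0.22 (limma adjusted p = 0.3), and HG-Res against HG gave 0.13 ± 0.22 (limma adjusted p = 0.922).

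SIRT2, a mainly cytosolic deacetylase with tubulin among its substrates, is the sirtuin that SirReal2 is known to inhibit. Its level was 51.4, 57.14 and 46.67 CPM in HG, 59.8, 59.67 and 56.07 CPM in HG-Res, and 68.97, 61.61 and 46.81 CPM in the inhibitor group. The inhibitor group held both the highest library and one near the lowest, and overlapped each of the other groups. Its mean, 59.1 ± 11.3 CPM, lay beside 58.5 ± 2.12 in HG-Res and 51.7 ± 5.24 in HG (SD, n = 3). HG-Res against HG gave 0.18 ± 0.15 (limma adjusted p = 0.76), and the inhibitor group gave -0.002 ± 0.15 against HG-Res (limma adjusted p = 0.991) and 0.18 ± 0.15 against HG (limma adjusted p = 0.451). Without inhibitor replicate 3 the last of these was 0.33 ± 0.10 and passed (limma adjusted p = 0.0457), beside 21.1% of all tested genes.

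The mitochondrial sirtuins had 125 to 295 recovered reads per library. Their highest library was 1.37 to 1.48 times their lowest. That ratio was 1.48 for SIRT2, 1.52 for SIRT7, 2.08 for NAMPT, 2.38 for SIRT6 and 2.99 for SIRT1. SIRT3, the main deacetylase of mitochondrial proteins, was at 8.21, 8.11 and 7.84 CPM in HG, 7.7, 7.53 and 8.65 CPM in HG-Res, and 9.24, 7.99 and 6.73 CPM in the inhibitor group. The means were within 0.1 CPM of each other, and the inhibitor group spanned all other libraries. Its changes lay between -0.02 and -0.003 in the 3 comparisons (limma adjusted p from 0.924 to 0.991). The 95% intervals reached from a ratio of CPM + 1 of 0.82 to one of 1.2.

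SIRT4, a mitochondrial sirtuin known for restraining glutamate dehydrogenase, was at 4.75, 5.46 and 4.5 CPM in HG, 4.04, 4.36 and 3.92 CPM in HG-Res, and 5.7, 5.04 and 5.81 CPM in the inhibitor group. HG-Res was below every library of both other groups, and HG overlapped the inhibitor group. The change of HG-Res against HG was -0.21 ± 0.10 (limma adjusted p = 0.537). Mean levels were 4.11 CPM in HG-Res and 5.52 CPM in the inhibitor group. The change between these was 0.35 ± 0.10, a ratio of CPM + 1 of 1.28 (95% interval 1.09 to 1.5). With a pseudocount of 0.1 the change was 0.42. The inhibitor group against HG-Res had the smallest adjusted p of the family (limma adjusted p = 0.0764). Among all tested genes, 8.99% had a limma p as small in that comparison. The authors' deposited tables gave SIRT4 p = 0.143 and q = 0.358 there, and their smallest q of the family was that of SIRT1 (0.059). Which member came first thus depended on the test. Against HG the change was 0.14 ± 0.10 (limma adjusted p = 0.378).

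SIRT5, which removes succinyl and malonyl groups from mitochondrial proteins, was at 6.23, 6.54 and 6.01 CPM in HG, 4.83, 5.53 and 5.7 CPM in HG-Res, and 5.89, 4.69 and 5.15 CPM in the inhibitor group. All 6 libraries with resveratrol lay below all 3 HG libraries. The differences were -0.19 ± 0.11 for HG-Res (limma adjusted p = 0.586) and -0.22 ± 0.11 for the inhibitor group (limma adjusted p = 0.207), both against the same HG libraries, and -0.03 ± 0.11 between the resveratrol groups (limma adjusted p = 0.877). How many tested genes have 1 group apart from both others, as SIRT4 and SIRT5 did, was not counted. Groups that do not overlap are common in these data. They were found in 2 of the 8 genes (SIRT4 and SIRT5) between HG-Res and HG, beside 29.9% of all tested genes. Between the inhibitor group and HG-Res they were found in 3 (SIRT4, SIRT6 and SIRT7) beside 33.7%, and between the inhibitor group and HG in 1 (SIRT5) beside 28.1%.

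NAMPT was at 98.6, 61.54 and 107.14 CPM in HG, 87.22, 75.06 and 73.8 CPM in HG-Res, and 63.68, 87.36 and 128.26 CPM in the inhibitor group. The groups overlapped in every comparison, and the lowest and highest of the 9 libraries were HG replicate 2 and inhibitor replicate 3. Means were 89.1 ± 24.2, 78.7 ± 7.41 and 93.1 ± 32.7 CPM in that order (SD, n = 3). HG-Res against HG gave -0.14 ± 0.26 (limma adjusted p = 0.93), the inhibitor group against HG-Res 0.19 ± 0.26 (limma adjusted p = 0.648), and the inhibitor group against HG 0.04 ± 0.26 (limma adjusted p = 0.924). The ratios had 95% intervals of 0.6 to 1.36, 0.76 to 1.71 and 0.69 to 1.55 in that order. A 1.5-fold rise of NAMPT RNA lay inside both intervals of the inhibitor group. A 1.5-fold fall lay inside that of HG-Res against HG.

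**Figure D2:**
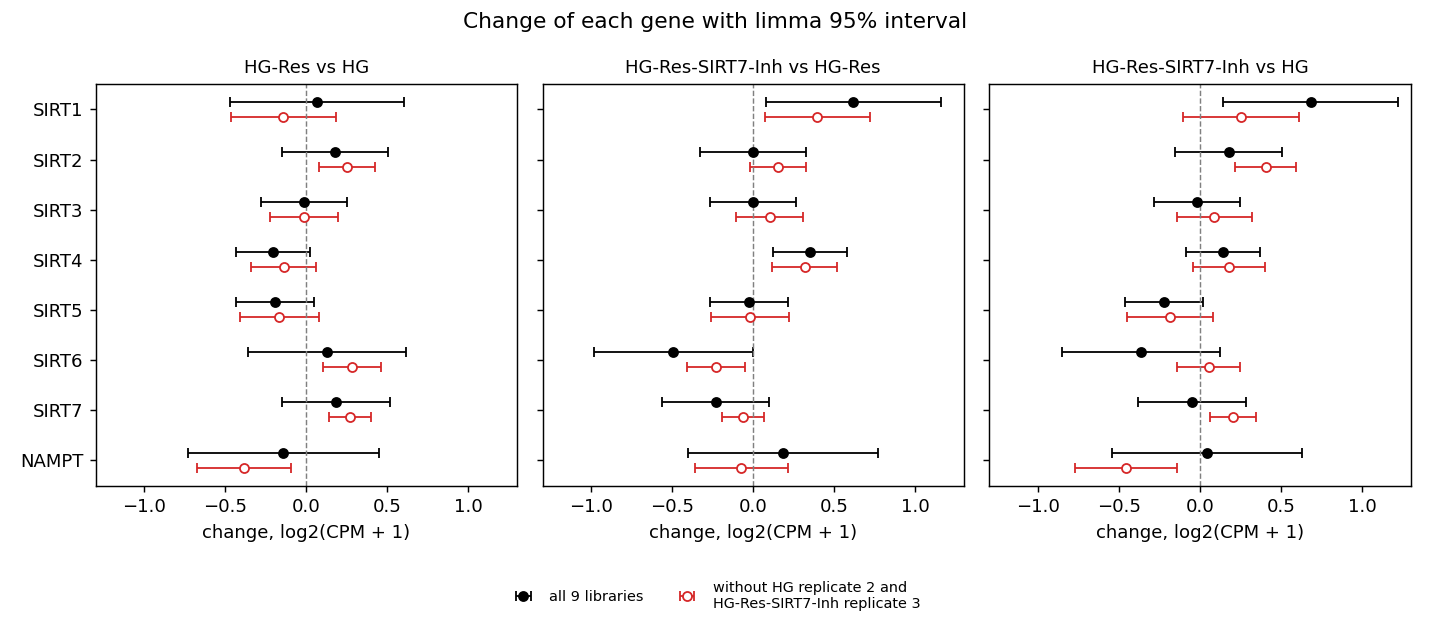
Change in log2(CPM + 1) (horizontal axes) of each gene (vertical axis) in the 3 comparisons, with limma 95% intervals; filled black points use all 9 libraries, open red points leave out HG replicate 2 and inhibitor replicate 3. Without the 2 libraries the intervals narrow for every gene shown except SIRT5, and NAMPT against HG goes from 0.04 to -0.46.

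The authors' deposited table of HG against Ctrl lists 354 marked genes, beside 20263 genes in the full tables, so most genes are absent from it. The 8 genes are absent too (0 listed). Ctrl levels of these genes were therefore not analysed here. In the 3 full tables the mark was met exactly at an unadjusted p under 0.05 and a fold change over 1.5, and all 354 listed genes met both limits. Absence from the list says that a gene did not meet both limits in the authors' test, not that high glucose left it alone.

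The spread within groups was uneven across the family and far above counting error for some members. NAMPT, SIRT1 and SIRT6 varied more between replicates than most of the 500 genes nearest in level. The SD on the log2 scale was 0.426 for NAMPT, 0.379 for SIRT1 and 0.27 for SIRT6 in HG, where the genes of like level had medians of 0.122, 0.142 and 0.141. In the inhibitor group the SDs were 0.5, 0.439 and 0.461, beside medians of 0.27, 0.262 and 0.268. In relative terms, NAMPT had a coefficient of variation of 35.1% in the inhibitor group, where its read number alone would give 1.86%. SIRT4, by contrast, varied by 7.55% in that group, beside 7.63% expected from counting. SIRT7 in HG-Res, at 1.64%, also lay below its counting error of 2.37%. The resveratrol group was the tightest for SIRT1, SIRT2, SIRT4, SIRT6, SIRT7 and NAMPT, while SIRT3 and SIRT5 were tightest in HG. Over all tested genes the median SD was 0.071 in HG-Res, 0.132 in HG and 0.242 in the inhibitor group.

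The 2 libraries that stood apart held the lowest or highest value of 7 of the 8 genes (SIRT2 being the exception), beside 78% of all tested genes. Across the 9 libraries SIRT1 followed the first principal component with r = 0.98 (Spearman's rho 0.93), and r was 0.94 over the other 7 libraries. SIRT6 ran against it with r = -0.96 (rho -0.95), and -0.76 without the 2. For SIRT7 and NAMPT the values were -0.82 and 0.78 with all 9 libraries but -0.35 and 0.35 without the 2, so these relations rested on the 2 libraries. Such values are descriptions of libraries that share treatments, and 20.6% of the other tested genes had an r beyond 0.9 in size. What sets HG replicate 2 and inhibitor replicate 3 apart was not tested.

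**Figure D3:**
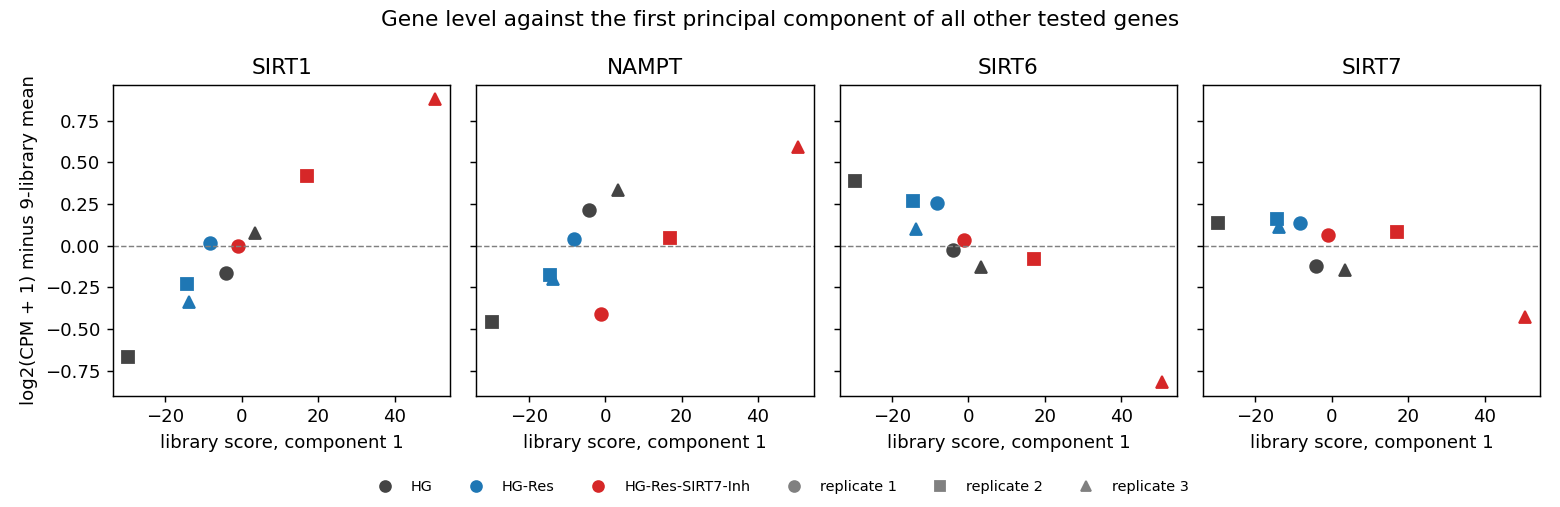
Level of SIRT1, NAMPT, SIRT6 and SIRT7 as log2(CPM + 1) minus the mean of the 9 libraries (vertical axis) against each library's score on the first principal component of the other tested genes (horizontal axes, no unit); colours are groups and symbols replicates. SIRT1 climbs along the whole axis (r = 0.98), SIRT6 descends (r = -0.96), and the 2 libraries at the ends, at -29.7 and 50.6, carry much of the pattern of SIRT7 and NAMPT.

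With HG replicate 2 and inhibitor replicate 3 left out, several members passed the threshold, as did many other genes. Between HG-Res and HG, 3 of the 8 passed, beside 21.2% of all tested genes. SIRT7 was higher by 0.27 ± 0.06 (limma adjusted p = 0.0149), SIRT6 by 0.28 ± 0.08 (limma adjusted p = 0.037) and SIRT2 by 0.25 ± 0.08 (limma adjusted p = 0.0454), each with the same sign as with all 9 libraries. NAMPT stood at -0.39 ± 0.13 and did not pass (limma adjusted p = 0.0614). Between the inhibitor group and HG-Res only SIRT4 passed, 0.32 ± 0.09 higher (limma adjusted p = 0.0387), beside 18.8%. Against HG, 3 passed beside 31%. These were SIRT2, 0.41 ± 0.08 higher (limma adjusted p = 0.00662), SIRT7, 0.21 ± 0.06 higher (limma adjusted p = 0.0361), and NAMPT, 0.46 ± 0.14 lower (limma adjusted p = 0.0365). SIRT1, the gene with the largest differences when all libraries were used, was then at 0.40 ± 0.14 against HG-Res (limma adjusted p = 0.0866) and 0.25 ± 0.16 against HG (limma adjusted p = 0.257). The 2 libraries were left out because they stood apart, and 2 libraries each remained in HG and the inhibitor group, so these are not independent estimates. Leaving out libraries for standing apart can lower the spread within groups, so these p-values can be too small.

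Ratios of one member to another within a library do not depend on the scaling between libraries. Of the 28 ratios among the 8 genes, 2 kept all 3 groups apart, NAMPT to SIRT1 and SIRT4 to SIRT6. Among ratios of all tested genes to SIRT1, 5.05% did so. No such share was computed for ratios without SIRT1, so whether the count of 2 is unusual was not tested. By its own level 0 of the 8 genes kept all 3 groups apart, beside 6.42% of all tested genes. The NAMPT to SIRT1 ratio was 2.877, 2.571 and 2.629 in HG, 2.242, 2.298 and 2.432 in HG-Res, and 1.652, 1.683 and 1.789 in the inhibitor group. It stepped down from 2.69 ± 0.163 through 2.32 ± 0.098 to 1.71 ± 0.072 (SD, n = 3), 36.6% lower in the last group than in HG. The libraries that stood apart kept to their groups here. Within groups the log2 ratio had an SD of 0.07, while NAMPT alone had 0.391 and SIRT1 alone 0.36. The SIRT2 to SIRT7 ratio had an SD of 0.068 (SIRT2 alone 0.189, SIRT7 alone 0.194) but did not keep the 3 groups apart. Among all 12800 tested genes found in every library, 0.969% had a ratio to SIRT1 with a smaller SD than NAMPT had (median 0.403). The ratio to SIRT1 kept the 3 groups apart in 5.05%. Because the NAMPT to SIRT1 ratio is of CPM, its size says nothing of which RNA was more abundant. It was singled out after its values were seen and has no test.

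**Figure D4:**
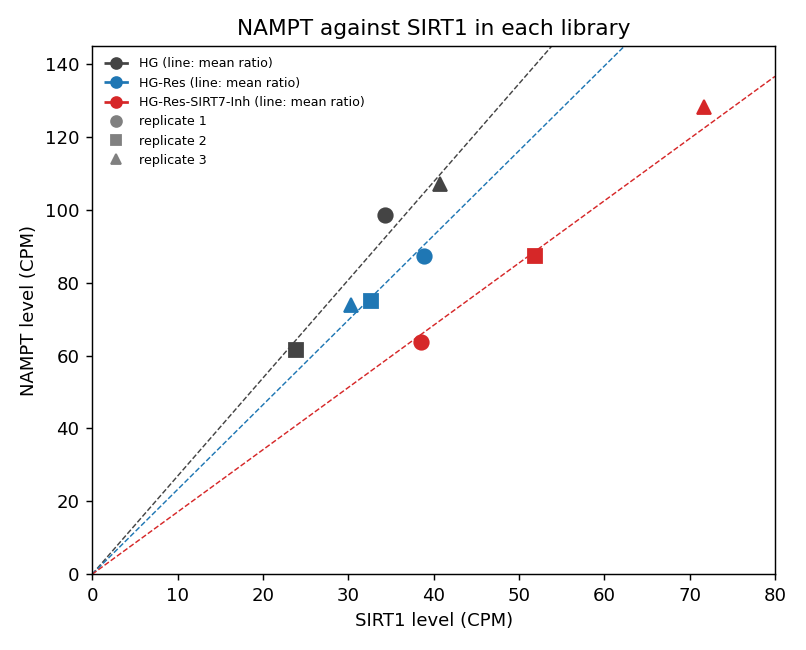
NAMPT level (vertical axis, CPM) against SIRT1 level (horizontal axis, CPM) in each of the 9 libraries; colours are groups, symbols are replicates and each dashed line has the slope of its group's mean ratio, 2.69 in HG, 2.32 in HG-Res and 1.71 in the inhibitor group. The libraries of a group spread along their own line, and the lines of the 3 groups are ordered.

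The SIRT4 to SIRT6 ratio was 0.169, 0.145 and 0.173 in HG, 0.118, 0.126 and 0.128 in HG-Res, and 0.195, 0.187 and 0.368 in the inhibitor group. It was lowest with resveratrol alone and highest with the inhibitor, where replicate 3 lay far above the other replicates. Within groups its log2 SD was 0.328, no smaller than the 0.327 of SIRT6 alone. No share over other genes was computed for this ratio, and it has no test. SIRT6 and SIRT7 had the highest r and rho of any pair of members across the 9 libraries, r = 0.93 (rho 0.90), with an r of 0.77 over the 7 libraries that remain without the 2. SIRT1 and SIRT6 had an r of -0.88 (rho -0.83), and -0.51 over the 7. SIRT2 and NAMPT had an r of -0.79 (rho -0.60), and -0.84 over the 7. SIRT1 and NAMPT had an r of 0.76 (rho 0.78), and 0.29 over the 7.

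Genes outside the family with the most similar pattern were sought by Pearson's r of log2(CPM + 1) over the 9 libraries. For SIRT7 they were ENSG00000130203 (r = 0.993) and ENSG00000172046 (r = 0.988). The former was at 55.5 CPM in HG, 66.4 in HG-Res and 52.7 in the inhibitor group on average. For NAMPT they were ENSG00000162959 (r = 0.991) and ENSG00000169131 (r = 0.99), the former at 29.3, 26.3 and 30.6 CPM. Of the 12846 genes compared, 910 had an r over 0.9 with SIRT7 and 692 with NAMPT, so a close match is common among these 9 libraries. SIRT1 had 1573 such genes and SIRT6 1082, whereas SIRT3 had 14, SIRT4 7 and SIRT5 35.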

How the data were processed

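The 8 genes and the lists in the plan were chosen with earlier results of these data known. Per the submitters' processing notes, the tools include Trimmomatic and the build rn6, while the aligner, the counter and the authors' statistical test are not given in the sources at hand. The deposited values are headed TPM, but low values of a library are multiples of 1 step shared by all genes, so they were read as CPM. With the best step, 99.83% to 100% of values under 20 CPM equalled a whole read at the 2 printed decimals. Rounding to 0.01 CPM is a sizeable part of a read, so recovered reads served depth, counting error and voom, not the main test. Each deposited table also holds the authors' log2 fold change, p-value and q-value. A library in more than 1 table had equal values, and no replicate pair agreed within sampling noise.

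limma 3.58.1 (R 4.3.3) was fitted with group means and an intensity trend over 9 libraries on log2(CPM + 1), and Benjamini-Hochberg adjustment ran over all 12854 tested genes. Low genes' changes are understated on this scale. The fit was tested on simulated data. The plan foresaw a count test had whole counts been deposited. P-values measure the spread between the labelled biological replicates. Genes were named by membership; similar genes by the highest correlation, identifiers only, for SIRT7 and NAMPT. The ratios were added after seeing the data.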

Additional observations from a re-analysis of the deposited data

How the results depend on the processing

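Each of the 24 changes (8 genes, 3 comparisons) was recomputed under 19 alternatives. Direction and side of the threshold were kept in all 24 with the replicate number as a block, the 2 groups alone, a pseudocount of 0.1, no filter, a filter at 1 CPM, median-of-ratios scaling, 1 prior variance, voom and the authors' q-values. Of 456 recomputed changes 10 passed and 26 had the other sign, 2 of them being among those that passed, all on leaving out libraries. With the replicate block 0 of 8 genes passed in each comparison (SIRT1 against HG, limma adjusted p = 0.0998). Deviations of same-numbered libraries from their group means correlated from -0.55 to 0.64. Deviations within a group of 3 sum to 0, so these correlations cannot tell whether the numbers pair the libraries.

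Without HG replicate 2 and inhibitor replicate 3, the number of genes passing was 3 between HG-Res and HG, 1 between the inhibitor group and HG-Res and 3 between the inhibitor group and HG, in place of 0. Signs turned for SIRT1 (-0.14) in the first, SIRT2 (0.15), SIRT3 (0.101) and NAMPT (-0.0721) in the second, and SIRT3 (0.0886), SIRT6 (0.0528), SIRT7 (0.21) and NAMPT (-0.46) in the last. The cause was not tested.

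Without 1 library at a time the number passing was 0 throughout between HG-Res and HG, 0 to 1 between the inhibitor group and HG-Res, and 0 to 1 between the inhibitor group and HG. Changes whose sign turned ranged, between HG-Res and HG, from -0.14 to 0.23 (SIRT1), -0.0715 to 0.0175 (SIRT3) and -0.39 to 0.01 (NAMPT). Between the inhibitor group and HG-Res they ranged from -0.12 to 0.15 (SIRT2), -0.10 to 0.10 (SIRT3), -0.10 to 0.0376 (SIRT5) and -0.0721 to 0.43 (NAMPT). Between the inhibitor group and HG they ranged from -0.12 to 0.084 (SIRT3), -0.14 to 0.12 (SIRT7) and -0.21 to 0.29 (NAMPT). At this depth counting error alone gave a coefficient of variation of 7.63% for SIRT4 and 1.86% for NAMPT in the inhibitor group. With 0 of the 8 genes in the HG against Ctrl list, a q-value limit of 0.05 there had no member to act on.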
